A study of Mus musculus with 9 samples.

Results

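The comparison described here set mature luminal (ML) cells of the mouse mammary gland against hormone-receptor-negative luminal progenitors (HR- LP). All cells came from adult mammary tissue, were depleted of lineage-positive cells, and were separated by flow cytometry on the surface protein CD14 and on YFP, a yellow fluorescent reporter switched on by a Cre recombinase under the control of the progesterone receptor gene (PR-cre). Such a reporter, once switched on, stays on in the cell and its progeny. HR- LP cells were CD14+ and YFP-. The ML libraries are labelled CD14- and YFP+ in the sample titles, whereas the design text of the series calls them YFP-, and the sample titles were followed. The comparison used 3 ML and 3 HR- LP libraries, 6 of the 9 in the series. The other 3, of CD14+ YFP+ hormone-receptor-positive progenitors (HR+ LP), entered the estimate of the spread, the filter on low counts and the mean level over 9 libraries, but not the contrast. The members were chosen by these labels alone, and all genes with enough counts were compared. No strain, parity, estrous stage or number of animals was given in the sources used here, so p-values measure the spread between these libraries, which may be technical in part. In sorted bulk samples, fewer cells of a type and less RNA per cell cannot be told apart.

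The mammary ducts are lined by an inner layer of luminal cells inside a basal layer of contractile cells. Some luminal cells carry receptors for estrogen, progesterone and prolactin, and pass the hormonal signal to their neighbours through secreted factors such as amphiregulin, WNT4 and RANKL. Luminal cells that lack these receptors hold the alveolar progenitors, which depend on the transcription factor ELF5 and form the milk-secreting alveoli in pregnancy. CD14, a co-receptor for bacterial lipopolysaccharide, and KIT, the receptor for stem cell factor, are used to sort such progenitors.

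Total counts ran from 27219103 to 108119756 per library over the series. The libraries of HR- LP and ML separated along the first principal component of log2 CPM (61.4% of the variance), and HR- LP replicate 3 stood apart from the other HR- LP libraries on the second (10.1%). Levels are given as CPM, counts relative to the library's total scaled by TMM factors, in the order of replicates 1, 2 and 3. Fold changes are log2 of ML over HR- LP with their standard error, and a gene was called at a Benjamini-Hochberg adjusted p below 0.05 in edgeR's quasi-likelihood test. Strand was not marked in these libraries, so reads from overlapping antisense genes cannot be told apart. A signed number in brackets after a gene is its log2 fold change.

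Of 15910 genes tested, 3700 (23.3%) were called higher and 3389 (21.3%) lower in ML, or 44.6% in either direction, and these shares are the background for every count below. The median log2 fold change of all tested genes was 0.03. Without HR- LP replicate 3, the library that stood apart, 3558 genes were called higher and 3391 lower. More than 2-fold differences were found for 2317 higher and 2202 lower genes, more than 8-fold for 1022 and 918, and more than 64-fold for 452 and 371. These counts include genes with no count in one group, whose fitted fold change is no bound on the true one. Protein-coding genes were called more often (46.9%) than long noncoding RNAs (31.3%). All 3 ML libraries lay above all 3 HR- LP libraries for 28.2% of the genes tested, and below them for 24.9%. The plot of fold change against mean level shows both wings reaching into the most abundant genes.

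**Figure D1:**
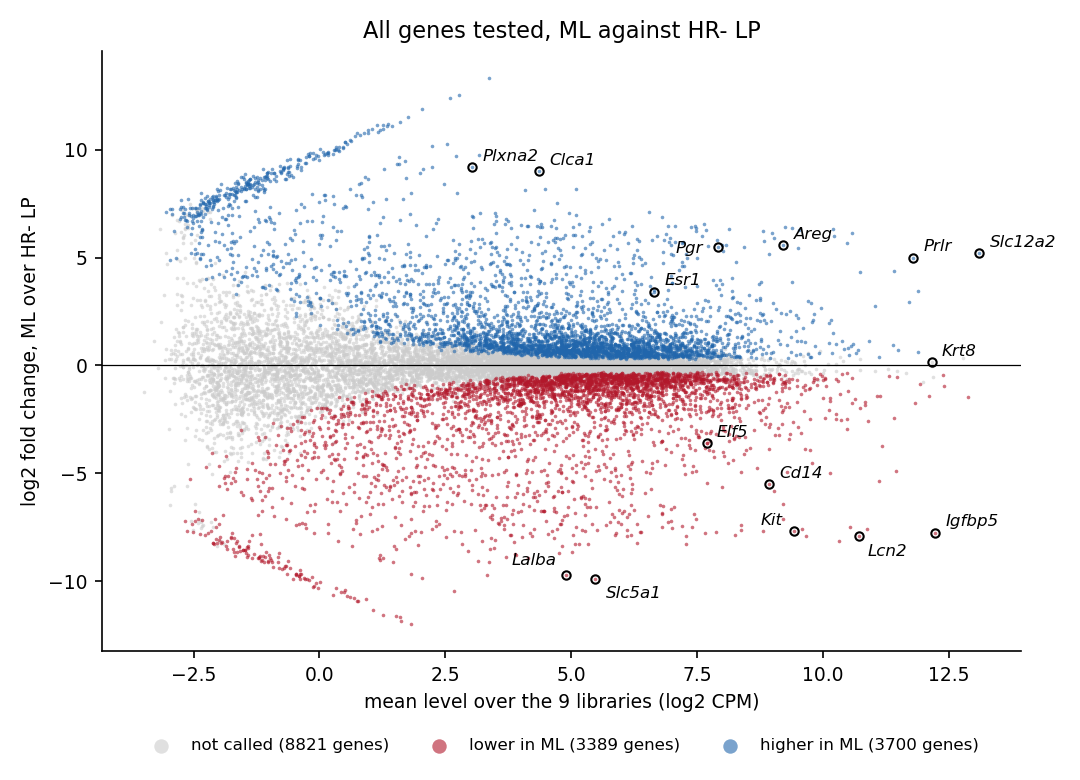
Each point is 1 of 15910 tested genes, with the mean level over 9 libraries (log2 CPM) on the x axis and the log2 fold change of ML over HR- LP on the y axis; blue genes were called higher (3700), red genes lower (3389) and grey genes not called in ML. Slc12a2 (5.22) and Prlr (4.996) are among the most abundant genes above the line, Igfbp5 (-7.75) and Lcn2 (-7.88) among those below it, and Krt8 lies near 0 (0.14). The oblique streaks at low mean level are genes with no or almost no counts in one group.

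The gate gene and the hormone receptors followed the sort. Cd14 (gene ID 12475, chromosome 18, 36725064 to 36726815 of mm10) had 1167, 1179.8 and 996 CPM in HR- LP and 30.3, 18.3 and 25.4 CPM in ML, 45.1-fold lower in ML by the means (log2 fold change -5.50 ± 0.22, adjusted p = 3.0e-08). The progesterone receptor gene Pgr (gene ID 18667, chromosome 9, 8898900 to 8968611 of mm10) had 276, 557 and 471 CPM in ML and 6.32, 15.8 and 6.12 CPM in HR- LP (log2 fold change 5.51 ± 0.45, adjusted p = 2.6e-06). Esr1, the estrogen receptor alpha gene (gene ID 13982, chromosome 10, 4611989 to 5005633 of mm10), had 158, 166 and 164 CPM in ML and 8.98, 20.6 and 15.6 CPM in HR- LP (log2 fold change 3.43 ± 0.26, adjusted p = 1.4e-06). In all 3 genes the lowest library of the higher group stood far above the highest library of the other, and the 3 ML values of Esr1 lay closer together than those of Pgr. Since Cd14 protein and Pgr promoter activity chose the cells, both differences check the labels and are no findings.

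Most steroid receptors and factors that act with them were higher in ML. Of 15 tested members, 9 rose, 3 fell and 3 did not pass the test, with a median log2 fold change of 1.53, beside 23.3% higher and 21.3% lower among all tested genes. Pgr, whose promoter drove the sorted reporter, is among those that rose. Foxa1, a pioneer factor that opens chromatin for the estrogen receptor, had 540.2, 541 and 351 CPM in ML and 39.3, 70.4 and 54.5 CPM in HR- LP (log2 fold change 3.12 ± 0.26). Esrrg, an orphan receptor related to the estrogen receptors, had 36.8, 26.7 and 31.4 CPM in ML and 4.36, 5.70 and 3.97 CPM in HR- LP (log2 fold change 2.75 ± 0.20). The groups were apart for both genes. Against this direction, the glucocorticoid receptor gene Nr3c1 had 87.4, 90.6 and 79.1 CPM in HR- LP and 32.4, 34.6 and 26.9 CPM in ML (log2 fold change -1.45 ± 0.15). The coactivator gene Ncoa1 fell (-1.38). The coactivator genes Ncoa2 (0.08 ± 0.18) and Ncoa3 (-0.16 ± 0.13) did not pass the test, and their libraries overlapped. Esr2, the second estrogen receptor gene, had under 0.1 CPM in all 6 libraries and was below the count filter.

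Genes that mark hormone-sensing luminal cells were mostly higher in ML (median 2.51). In it 11 of 16 tested members rose, 2 fell and 3 did not pass the test. The prolactin receptor gene had 5535, 7752 and 5654 CPM in ML and 119, 303 and 171 CPM in HR- LP (log2 fold change 4.996 ± 0.34, adjusted p = 8.0e-07), the highest level in the list. Its lowest ML library stood far above its highest HR- LP library. Ly6a, which encodes the surface protein Sca-1, had 1039.7, 1025 and 723 CPM in ML and 13.7, 24.9 and 7.98 CPM in HR- LP (log2 fold change 5.89 ± 0.41). Wfdc2, a secreted WAP-domain protein gene, had 892, 917 and 707 CPM in ML and 18.3, 32.2 and 18.6 CPM in HR- LP (log2 fold change 5.18 ± 0.27). Stc2, the gene of the secreted glycoprotein stanniocalcin 2, rose by 5.58 ± 0.47 and the transcription factor gene Myb by 3.86 ± 0.29. All 5 of these genes were apart between the groups. The 2 list members that fell were Cldn3, a tight junction gene (334 to 500.1 CPM in HR- LP and 216 to 242 CPM in ML), and Itga2, an integrin gene (38.7 to 87.7 CPM in HR- LP and 20.4 to 23.9 CPM in ML). Tff1 and Tff3, trefoil factor genes often linked to estrogen response in human breast tumours, had 0 CPM in all 6 libraries. Leaving out HR- LP replicate 2, the HR- LP library with the highest levels of these genes, moved the log2 fold change of Pgr to 6.13 and of Stc2 to 6.32.

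Each population held low levels of the other's genes, and these levels differed between libraries. The 81 genes called lower in ML by more than 5 (log2) and with more than 100 CPM in HR- LP had a median level in the ML libraries of 0.920%, 0.373% and 0.944% of their HR- LP mean. ML replicate 2 held the lowest value for 62 of them. In the other direction, 60 genes high in ML by the same limits had 0.771%, 2.82% and 1.22% of their ML mean in the HR- LP libraries, and HR- LP replicate 2 held the highest value for 54 of them. These genes were selected on the same contrast, so the percentages are a description. The part of these levels in the fold changes was not tested.

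**Figure D2:**
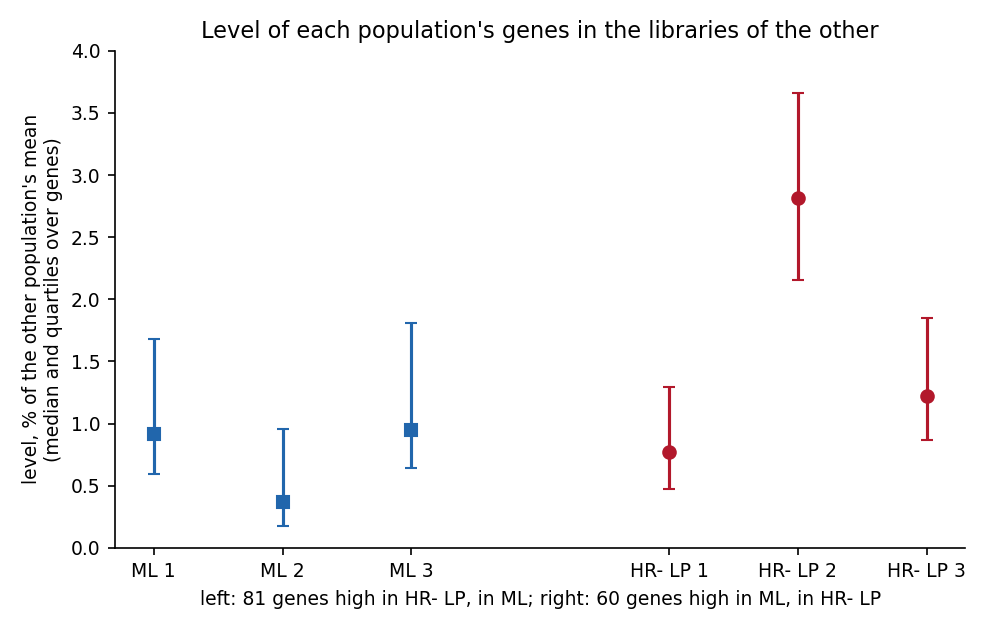
Points show the median, and bars the quartiles over genes, of the level in each library as a percentage of the other population's mean: 81 genes high in HR- LP, measured in the ML libraries (blue squares), and 60 genes high in ML, measured in the HR- LP libraries (red circles). ML replicate 2 lies lowest (0.373%) and HR- LP replicate 2 highest (2.82%).

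The list of mediators of hormone action, which also holds the cyclin gene Ccnd1, whose product is not secreted, divided, with Areg and Wnt4 high in ML. Of 16 tested members, 3 rose, 5 fell and 8 did not pass the test, with a median log2 fold change of -0.33. Areg, the gene of amphiregulin, an EGF receptor ligand through which estrogen acts on neighbouring cells, had 916, 1016 and 1207 CPM in ML and 12.6, 36.7 and 16.4 CPM in HR- LP (log2 fold change 5.57 ± 0.39). Wnt4, a mediator of progesterone action, had 227, 309 and 250.2 CPM in ML and 4.56, 15.9 and 4.22 CPM in HR- LP (log2 fold change 4.96 ± 0.49). Wnt7b rose by 1.42 ± 0.15. For Areg and Wnt4 the highest HR- LP library lay far below the lowest ML library. Tnfsf11, the gene of RANKL, had 0 CPM in 5 of the 6 libraries and 0.259 CPM in ML replicate 3, below the count filter. The protease gene Adamts1, among the genes that fell, had 109.9, 198 and 172 CPM in HR- LP and 4.76, 6.89 and 8.66 CPM in ML (log2 fold change -4.55 ± 0.29). Inhbb, an activin and inhibin subunit gene, had 883, 816 and 427 CPM in HR- LP and 246, 238 and 223 CPM in ML (log2 fold change -1.59 ± 0.24). Both were apart between the groups. Ccnd1, the gene of cyclin D1, overlapped between groups with 366 to 639.7 CPM in HR- LP and 314 to 472 CPM in ML (log2 fold change -0.39 ± 0.24, adjusted p = 0.22), with 23.4% of its exon bases in another gene too. Without HR- LP replicate 2 the log2 fold changes were 6.18 for Areg and 5.90 for Wnt4.

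The JAK-STAT genes, through which prolactin and cytokine receptors signal, split by member. Of 17 tested members, 6 rose, 4 fell and 7 did not pass the test (median log2 fold change 0.10). Jak2, the kinase bound to the prolactin receptor, rose from 81.9, 97.8 and 57.6 CPM in HR- LP to 176, 261 and 251 CPM in ML (log2 fold change 1.53 ± 0.21). The feedback inhibitor gene Socs3 rose from 144, 206 and 139.7 CPM in HR- LP to 807, 1018 and 751 CPM in ML (log2 fold change 2.39 ± 0.20). Lifr, a receptor subunit for leukemia inhibitory factor, rose by 2.98 ± 0.24, and Il13ra1 by 1.55 ± 0.13. Stat3 had 822, 1358 and 1289.6 CPM in HR- LP and 449, 543 and 582 CPM in ML (log2 fold change -1.14 ± 0.21), and Stat6 (-0.73), Cish (-1.36) and Socs5 (-0.94) also fell. Jak1, at 238 to 290.4 CPM in HR- LP and 262 to 294 CPM in ML, did not pass the test (0.10 ± 0.13). The ligand gene Lif moved opposite to its receptor subunit, with 490.0, 1013 and 739 CPM in HR- LP and 18.7, 18.3 and 35.6 CPM in ML (log2 fold change -4.95 ± 0.39).

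Genes of alveolar progenitors were mostly lower in ML. Of 19 tested members, 3 rose, 15 fell and 1 did not pass the test, with a median log2 fold change of -5.35. Cd14, the sorted gene, is among those that fell. Kit (gene ID 16590, chromosome 5, 75574987 to 75656722 of mm10) had 1443, 1796 and 1372 CPM in HR- LP and 9.71, 2.11 and 10.6 CPM in ML (log2 fold change -7.69 ± 0.55, adjusted p = 1.1e-06). Elf5, the ETS factor required for alveolar development (gene ID 13711, chromosome 2, 103412098 to 103450989 of mm10), had 542, 440.3 and 319.9 CPM in HR- LP and 17.2, 39.1 and 51.8 CPM in ML (log2 fold change -3.59 ± 0.36, adjusted p = 1.1e-05). The groups were apart for both genes, by a smaller gap for Elf5 than for Kit. Aldh1a3, a retinaldehyde dehydrogenase gene whose activity marks luminal progenitors, had 1229, 1337 and 1449 CPM in HR- LP and 12.2, 2.30 and 14.4 CPM in ML (log2 fold change -7.12 ± 0.59). Mfge8, the gene of the milk fat globule protein, had 5565, 4809 and 4417 CPM in HR- LP and 192, 82.2 and 89.2 CPM in ML (log2 fold change -5.35 ± 0.34). Lcn2, an iron-scavenging lipocalin gene and the most abundant gene of HR- LP per kilobase, had 3599.8, 4109 and 4199 CPM in HR- LP and 23.3, 2.51 and 24.8 CPM in ML (log2 fold change -7.88 ± 0.76). ML replicate 2 was the lowest ML library for Kit, Aldh1a3, Mfge8 and Lcn2, and ML replicate 1 for Elf5. Wfdc18 (-7.61), Tspan8 (-5.74) and the transferrin gene Trf (-8.15) also fell. Of Trf, 63.5% of the exon bases overlap another annotated gene, so its counts are uncertain.

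In the alveolar list 3 members rose. Cxcl15, a chemokine gene, had 173, 257 and 218 CPM in ML and 1.59, 5.55 and 2.04 CPM in HR- LP (log2 fold change 6.09 ± 0.45). Itga6, the integrin alpha 6 gene, had 331, 397 and 425 CPM in ML and 94.7, 136 and 190.3 CPM in HR- LP (log2 fold change 1.45 ± 0.23). Bmpr1b, a BMP receptor gene of low level, had 3.22, 3.98 and 1.95 CPM in ML and 0.202, 0.0102 and 0.0358 CPM in HR- LP (log2 fold change 5.22 ± 0.89). These 3 genes were apart between the groups, at very different levels. Sox9 was the member that did not pass the test, with 648, 1001 and 1089 CPM in HR- LP and 616, 822 and 779 CPM in ML (adjusted p = 0.30). Sox10, of the same family, had 359, 412 and 443 CPM in HR- LP and 3.52, 0.979 and 4.403 CPM in ML (log2 fold change -7.10 ± 0.47). Both are transcription factor genes linked to mammary progenitors, and both were named after their values were seen. Leaving out HR- LP replicate 2 gave 6.91 for Cxcl15 and 4.52 for Bmpr1b, and leaving out HR- LP replicate 1 gave 7.33 for Bmpr1b.

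**Figure D3:**
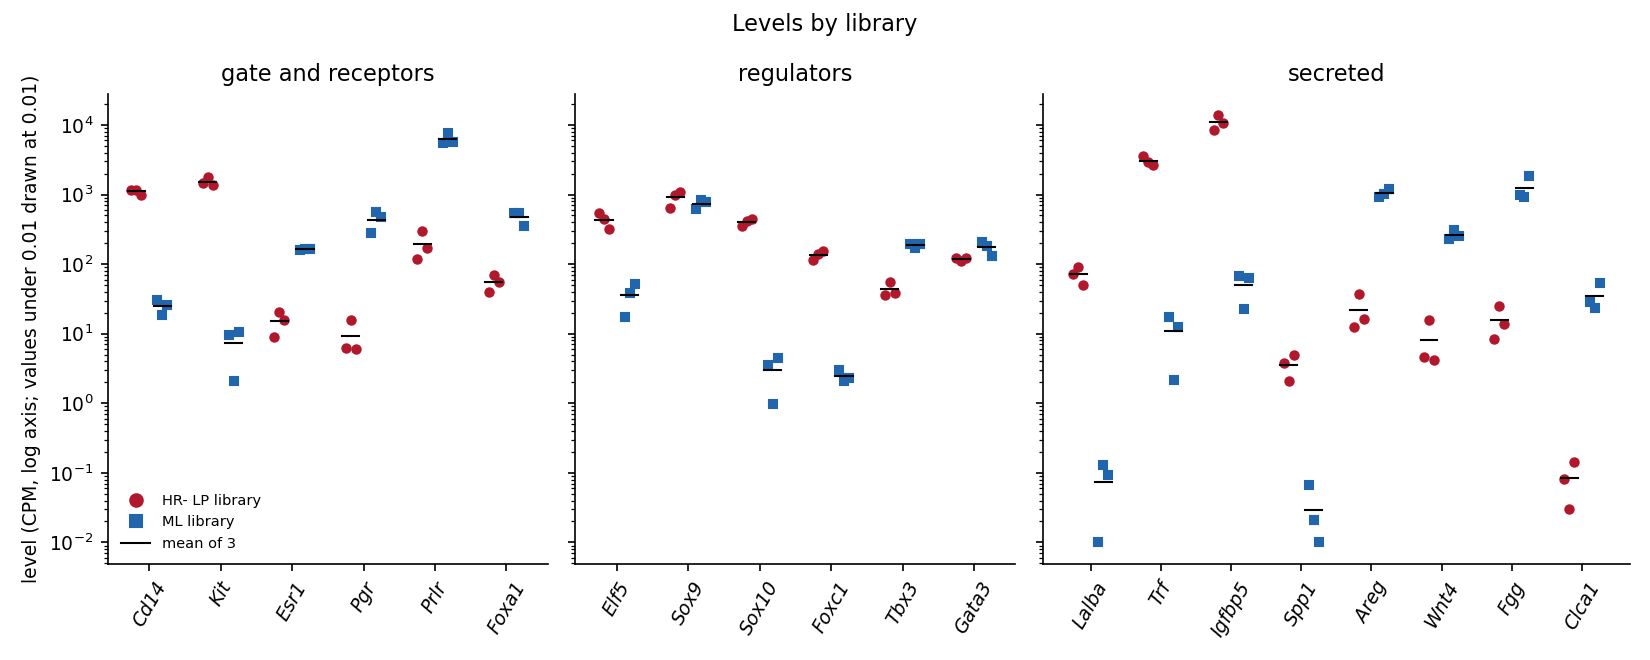
Levels in CPM on a log axis for 20 genes in the 3 HR- LP libraries (red circles) and the 3 ML libraries (blue squares), with the mean of each group as a black bar and values under 0.01 drawn at 0.01. Cd14, Kit and the secreted Lalba, Trf, Igfbp5 and Spp1 lie higher in HR- LP, Esr1, Pgr, Prlr, Foxa1, Areg, Wnt4, Fgg and Clca1 lie higher in ML, and the 2 groups overlap for Sox9.

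Milk genes were lower in ML. All 11 tested members fell, with a median log2 fold change of -6.99 (-6.63 when the 1 member with no ML count is set at its bound). A count filter keeps such genes because of the group where they are high, so the count is a description. Csn3, the kappa-casein gene, was the most abundant, with 2181.6, 1864 and 1784 CPM in HR- LP and 10.8, 3.47 and 10.3 CPM in ML (log2 fold change -7.90 ± 0.43). Lalba, the gene of alpha-lactalbumin, which completes the lactose synthase enzyme, had 71.7, 91.7 and 49.6 CPM in HR- LP and 0, 0.128 and 0.0942 CPM in ML (log2 fold change -9.71 ± 0.58). For both genes the ML libraries lay far below all HR- LP libraries. Btn1a1, which acts in milk fat secretion, had 766, 811 and 539 CPM in HR- LP and 4.92, 0.745 and 3.58 CPM in ML (log2 fold change -7.87 ± 0.58). Xdh, its partner in milk fat secretion, had 267, 479 and 440.0 CPM in HR- LP and 16.3, 8.40 and 15.5 CPM in ML (log2 fold change -4.88 ± 0.31). Plin2, a lipid droplet coat gene, kept more of its level in ML, with 204 to 365 CPM in HR- LP and 18.7 to 28.4 CPM in ML. The beta-casein gene Csn2, the whey acidic protein gene Wap and Glycam1 were below the count filter, at no more than 2.04 CPM (Csn2 in HR- LP replicate 3) in any of the 6 libraries. Without ML replicate 2 the log2 fold change of Lalba was -10.31.

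Transcription factors linked to mammary lineages were mostly lower in ML. Of 28 tested members, 3 rose, 18 fell and 7 did not pass the test, with a median log2 fold change of -2.06. Cebpb, a factor needed for alveolar development, had 2023, 1977 and 1819 CPM in HR- LP and 76.2, 71.8 and 107.8 CPM in ML (log2 fold change -4.51 ± 0.22), and 20.7% of its exon bases also lie in another gene. Cebpd had 1917, 2009 and 1549 CPM in HR- LP and 118, 122 and 122 CPM in ML (log2 fold change -3.92 ± 0.17). Foxc1, a forkhead factor of basal-like breast tumours, had 114, 138 and 154 CPM in HR- LP and 3.05, 2.11 and 2.31 CPM in ML (log2 fold change -5.77 ± 0.23). For these 3 genes every HR- LP library held more than any ML library, with little spread inside either group. Tfap2c, the AP-2 gamma gene (-4.15), the Notch target gene Hey1 (-7.25) and Nfib (-2.14) also fell. Runx1, a partner of the estrogen receptor in luminal cells, went the other way, with 390.5, 467 and 500.2 CPM in ML and 163, 211 and 165 CPM in HR- LP (log2 fold change 1.33 ± 0.16). Id3, an inhibitor of bHLH factors, also rose, with 89.6, 65.1 and 72.8 CPM in ML and 6.38, 8.53 and 12.02 CPM in HR- LP (log2 fold change 3.09 ± 0.23).

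Promoters are shown for Esr1 and Elf5, the receptor and the alveolar factor that mark the 2 populations, and for Slc24a3 and Lalba, which, of the genes in the RefSeq promoter table, held the most motif kinds among the 12 largest rises and, first in order of size where several tied, among the 12 largest falls. Each is the 250 bases before the outermost start of the gene listed by RefSeq on GRCm38.p6 (mm10), 5′ to 3′ on the gene's strand, with matches to the motifs searched in capitals. They lie at chr2:145167525-145167774, plus strand (Slc24a3), chr15:98482684-98482933, minus strand (Lalba), chr2:103411848-103412097, plus strand (Elf5) and chr10:4611739-4611988, plus strand (Esr1). RefSeq lists 2 starts for Slc24a3, Elf5 and Esr1, and the inner ones are not shown.
Slc24a3: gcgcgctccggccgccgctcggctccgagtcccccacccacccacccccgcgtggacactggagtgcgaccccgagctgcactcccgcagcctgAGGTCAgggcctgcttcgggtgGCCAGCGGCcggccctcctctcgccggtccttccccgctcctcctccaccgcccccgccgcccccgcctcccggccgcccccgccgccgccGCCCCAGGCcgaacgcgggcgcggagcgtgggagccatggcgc
Lalba: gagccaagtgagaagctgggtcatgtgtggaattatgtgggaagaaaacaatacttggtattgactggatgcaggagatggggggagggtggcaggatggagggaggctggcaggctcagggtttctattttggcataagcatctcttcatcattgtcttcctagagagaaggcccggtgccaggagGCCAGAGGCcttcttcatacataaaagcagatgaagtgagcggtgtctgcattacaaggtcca
Elf5: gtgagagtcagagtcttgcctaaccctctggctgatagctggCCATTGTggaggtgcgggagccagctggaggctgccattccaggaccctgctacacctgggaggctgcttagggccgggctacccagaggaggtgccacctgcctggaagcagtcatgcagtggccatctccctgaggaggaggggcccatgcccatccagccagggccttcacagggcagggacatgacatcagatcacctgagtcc
Esr1: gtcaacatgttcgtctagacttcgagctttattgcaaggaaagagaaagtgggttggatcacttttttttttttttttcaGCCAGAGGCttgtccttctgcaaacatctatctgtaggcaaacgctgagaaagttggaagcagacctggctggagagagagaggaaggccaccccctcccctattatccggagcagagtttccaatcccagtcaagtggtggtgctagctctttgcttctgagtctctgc

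The capitals mark a single estrogen receptor hexamer (AGGTCA) 156 bases and AP-2 motifs (GCCNNNGGC) 134 and 43 bases before the start of Slc24a3, an AP-2 motif 63 bases before Lalba, a SOX motif (ACAATGG, here on the other strand) 208 bases before Elf5, and an AP-2 motif 170 bases before Esr1. The promoter of Slc24a3 was 80.8% G or C, and that of Esr1 47.6%. Over both strands, the hexamer was found in 11.7% of the 1748 promoters of genes higher in ML by more than 2-fold, 10.2% of the 1599 of genes lower by more than 2-fold, 10.9% of the 11756 of tested genes and 13.8% of all 27025. The full estrogen response element (GGTCANNNTGACC, which can hold such a hexamer) was in none of the promoters of either changed set and in 17 of all 27025. The AP-2 motif was in 18.9%, 22.3%, 19.9% and 13.5% of these sets. The AP-1 motif (TGACTCA) was in 4.75% of promoters of higher and 3.25% of lower genes, the CRE (TGACGTCA) in 1.26% and 2.88%, and the ETS motif (CCGGAAGT) in 2.92% and 1.69%. Of the promoters of tested genes, 3.26%, 2.63% and 5.49% held these, and 4.43%, 1.599% and 2.92% of all. The TATA box (TATAAA) was in 8.92% and 8.57%, the STAT motif (TTCNNNGAA) in 6.69% and 4.94%, the GATA motif (AGATAA) in 6.58% and 5.94%, the forkhead motif (TGTTTAC) in 2.52% and 2.69%, and the SOX motif in 1.83% and 1.94%. Of the promoters of tested genes, 6.99%, 5.99%, 6.01%, 2.19% and 1.67% held these. Of all 27025 promoters, 13.0%, 7.14%, 10.2%, 3.06% and 3.04% held these. The other motifs searched were each in under 0.5% of every set: the progesterone response element (GNACANNNTGTNC), C/EBP (TTGCGCAA), nuclear factor I (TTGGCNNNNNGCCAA), grainyhead (AACCGGTT) and NF-kB (GGGACTTTC). The median G and C content of the 4 sets ran from 52.0% to 60.4%. These shares carry no test, and a match of letters is not a bound site.

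The largest rises, ordered by fold among genes with no overlap between groups, were led by genes that few HR- LP reads touched. Trdv4, annotated as a V segment of the T cell receptor delta locus (gene ID 100114901, chromosome 14, 54075004 to 54075515 of mm10), had 17.3, 14.9 and 20.3 CPM in ML and 0, 0 and 0.107 CPM in HR- LP. Its HR- LP level rests on 3 counts, all in replicate 3, and the ratio was 1018-fold, with a 95% counting interval of 348 to 4940.1. Of the other T cell receptor genes tested, looked at after their values were seen, Trdc (4.42, 2.81 and 3.58 CPM in ML), Trdv5, Trbv2, Trbv3 and Trbc1 had no HR- LP count and were called higher, and Trac and Trbc2 were not called. The part of T cells in these values was not tested. Plxna2, a semaphorin receptor gene, had 15.8, 15.4 and 12.2 CPM in ML and 0, 0.0307 and 0.0358 CPM in HR- LP (log2 fold change 9.20 ± 0.46). Clca1, a gene of a secreted regulator of mucus and chloride channels, had 28.1, 23.3 and 54.1 CPM in ML and 0.0807, 0.0307 and 0.143 CPM in HR- LP (log2 fold change 9.02 ± 0.63). Ctse, a gut and immune aspartic protease gene, had 38.02, 39.3 and 37.7 CPM in ML and 0.303, 0.0614 and 0.0358 CPM in HR- LP (log2 fold change 8.17 ± 0.50). The 3 ML libraries lay close together for Ctse and differed by more than 2-fold for Clca1. Cdcp3 was the most abundant of the 12, with 171, 129 and 137 CPM in ML and 0.0605, 1.31 and 1.97 CPM in HR- LP (log2 fold change 7.09 ± 0.73). Ptpn5, a tyrosine phosphatase gene, had 5.96, 108.5 and 68.5 CPM in ML and 0, 0.860 and 0.429 CPM in HR- LP. ML replicate 1 held far less than the others, and the call (log2 fold change 6.99 ± 1.38, adjusted p = 0.0018) was lost with limma voom (adjusted p = 0.287). Dscam, Crym (a thyroid hormone binding protein gene), Plac8, Gcnt4, Kcnj11 (a potassium channel subunit gene) and Slc24a3 (a sodium, potassium and calcium exchanger gene) rose by 8.12, 7.54, 7.23, 8.17, 6.93 and 7.08. Fold changes on so few HR- LP counts moved with the library left out. The values were 9.39 for Ctse, 9.84 for Slc24a3 and 10.47 for Kcnj11 without HR- LP replicate 1. Leaving out HR- LP replicate 2 gave 9.89 for Plxna2, 8.37 for Clca1, 7.58 for Ctse, 7.30 for Gcnt4, 9.07 for Dscam, 6.90 for Crym, 6.46 for Plac8, 6.25 for Slc24a3, 8.52 for Ptpn5 and 6.05 for Kcnj11. The values were 9.25 for Gcnt4, 8.78 for Crym and 8.52 for Plac8 without HR- LP replicate 3. Leaving out ML replicate 2 gave 6.28 for Ptpn5.

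At the other end stood Slc5a1, the sodium-glucose cotransporter SGLT1 gene (gene ID 20537, chromosome 5, 33104219 to 33162699 of mm10), with 115, 119 and 69.1 CPM in HR- LP and 0.301, 0.0425 and 0.0235 CPM in ML (log2 fold change -9.92 ± 0.51). Npas3, a bHLH-PAS transcription factor gene, had 20.02, 23.1 and 26.3 CPM in HR- LP and 0.0335, 0 and 0.0471 CPM in ML, and the ratio over 3 ML counts was 904-fold, with a 95% counting interval of 309 to 4387. Car2, the carbonic anhydrase 2 gene, had 21.0, 16.9 and 36.2 CPM in HR- LP and 0.0670, 0.0213 and 0.0471 CPM in ML (log2 fold change -9.12 ± 0.54). The HR- LP libraries differed in which was highest. The homeobox gene Dlx5 had 24.4, 21.0 and 13.6 CPM in HR- LP and 0.134, 0 and 0 CPM in ML (log2 fold change -9.07 ± 0.70). None of these exceeded 1 CPM in an ML library. The receptor phosphatase gene Ptprz1 (-8.90), the cartilage-type collagen gene Col9a1 (-8.86), Fyb2 (-8.77), the amino acid transporter gene Slc43a2 (-8.67), the latrophilin gene Adgrl3 (-8.62), Emid1 (-8.48) and Nav3 (-8.39) made up the rest beside Lalba. These values too moved with single libraries. The value was -7.95 for Fyb2 without HR- LP replicate 3. Leaving out ML replicate 1 gave -11.48 for Slc5a1, -13.33 for Dlx5, -9.85 for Col9a1 and -9.39 for Nav3. The values were -8.40 for Dlx5, -8.24 for Ptprz1, -8.10 for Fyb2, -8.08 for Slc43a2 and -8.01 for Adgrl3 without ML replicate 2. Leaving out ML replicate 3 gave -8.45 for Dlx5, -10.50 for Ptprz1, -8.23 for Col9a1, -9.67 for Fyb2, -9.58 for Slc43a2 and -9.39 for Emid1.

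By the limits used here, few genes were close to on in one population and off in the other. The lower limit was set in counts, so it was stricter in CPM for the larger libraries. The part of the low levels of the other population's genes in this number was not tested. With at least 5 CPM in all libraries of one group and at most 3 counts in each library of the other, 10 genes were found in ML and 9 in HR- LP. The limits did not use the HR+ LP libraries, where mean levels of these genes ran from 2.05 CPM (Timd2) to 9.997 CPM (Plxna2). In ML, Ypel4 (11.6, 13.2 and 10.9 CPM), the receptor tyrosine kinase gene Alk (9.18, 12.4 and 11.4 CPM) and Adarb2, an RNA-editing family gene (8.14, 6.51 and 8.64 CPM), had no HR- LP count, and were at least 693-fold, 641-fold and 453-fold higher by a floor of 3 counts over the HR- LP group. The noncoding RNA 4921525O09Rik also had no HR- LP count and 5.39, 26.5 and 30.3 CPM in ML. Tnr, an extracellular matrix gene of the nervous system, had 6.23, 9.08 and 12.1 CPM in ML and 1 HR- LP count (ratio 1655-fold, with a 95% counting interval of 296 to 65412). The transporter gene Abcc4 had 9.68, 7.81 and 6.62 CPM and 2 counts (ratio 688-fold, with a 95% counting interval of 189.9 to 5688). Plxna2 and Trdv4, described above, belong to the same group. In HR- LP, the cystatin gene Cstdc2 (10.9, 8.43 and 5.05 CPM) had no ML count and was at least 323-fold higher there. Slc6a15, a neutral amino acid transporter gene, had 16.3, 15.7 and 11.99 CPM and 1 ML count (ratio 1827-fold, with a 95% counting interval of 328 to 72179). Timd2 had 6.78, 8.61 and 10.02 CPM and 1 ML count (ratio 992-fold, with a 95% counting interval of 178 to 39224). The cadherin gene Cdh19 had 7.69, 7.44 and 11.4 CPM and 3 ML counts (ratio 324-fold, with a 95% counting interval of 111 to 1573). Itga9, an integrin gene, and Ednra, an endothelin receptor gene, had 5 and 4 ML counts in all. Intervals and floors cover counting error only.

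Notch genes, which steer luminal fate through contact between cells, were more often lower than higher in ML. Of 18 tested members, 3 rose, 9 fell and 6 did not pass the test (median -1.13). Notch1 had 303, 429.8 and 339 CPM in HR- LP and 89.1, 96.9 and 74.3 CPM in ML (log2 fold change -2.04 ± 0.18). The target gene Nrarp had 105, 89.3 and 93.1 CPM in HR- LP and 7.97, 5.81 and 5.77 CPM in ML (log2 fold change -3.88 ± 0.19); 79.4% of its exon bases also lie in another gene, so its counts are uncertain. Numb, whose product antagonises Notch, fell (-2.36). The ligand gene Jag1 had 107, 97.2 and 90.6 CPM in ML and 3.05, 8.24 and 6.23 CPM in HR- LP (log2 fold change 4.06 ± 0.30). Lfng, a glycosyltransferase gene that tunes ligand choice, had 15.8, 13.8 and 16.2 CPM in ML and 0.868, 0 and 0.0358 CPM in HR- LP (log2 fold change 5.69 ± 0.97). Jag1 and Lfng were apart between the groups. The other member that rose was Hes6 (1.12 ± 0.24). Lfng was close to 0 in HR- LP except in replicate 1, and its fold change was 10.55 without that library and 4.91 without HR- LP replicate 2. Notch3 (-0.32 ± 0.17) and Hes1 (-1.05 ± 0.43), at 100 CPM or more, did not pass the main test over all libraries. With all libraries kept, Hes1 was called lower by DESeq2 (adjusted p = 0.016). In edgeR it was called lower without the count filter (adjusted p = 0.048) and with the replicate block over 9 libraries (adjusted p = 0.029). Hes1 ranged widely in HR- LP (742, 419 and 169 CPM). Without one HR- LP library each was called lower (Notch3 -0.48 without replicate 1, Hes1 -1.44 without replicate 3), and without HR- LP replicate 1 Hes1 was -0.46 (adjusted p = 0.323).

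Wnt genes divided, with ligands on both sides. Of 28 tested members, 5 rose, 16 fell and 7 did not pass the test (median -1.47). Besides Wnt4 and Wnt7b, Wnt5a had 134, 132 and 153 CPM in ML and 0.646, 3.33 and 3.33 CPM in HR- LP (log2 fold change 5.85 ± 0.47). Wnt11 had 15.6, 16.7 and 20.9 CPM in ML and 0.101, 0.409 and 0.573 CPM in HR- LP (log2 fold change 5.67 ± 0.47). Wnt5b had 305, 271 and 172 CPM in HR- LP and 2.48, 0.383 and 1.46 CPM in ML (log2 fold change -7.50 ± 0.53). Wnt5a and Wnt5b, close relatives, were high in opposite populations with no overlap. Lgr6, a receptor gene for R-spondins, had 127, 211 and 181 CPM in HR- LP and 1.24, 0.0213 and 0.636 CPM in ML (log2 fold change -8.22 ± 0.64). The receptor gene Fzd1 fell (-3.14) and the nuclear effector gene Tcf7l2 (-2.86), while the coreceptor gene Lrp6 did not pass the test (179 to 251 CPM in HR- LP and 199 to 235 CPM in ML, -0.02 ± 0.15). Without ML replicate 1 the log2 fold change was -8.09 for Wnt5b and -9.08 for Lgr6, and Lgr6 was -7.58 without ML replicate 2.

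In the EGF receptor and ligand list, of 16 tested members, 5 rose, 8 fell and 3 did not pass the test (median -0.91). Egfr, the receptor of amphiregulin, had 87.4, 178 and 158 CPM in HR- LP and 1.17, 1.21 and 1.27 CPM in ML (log2 fold change -6.85 ± 0.29). Egfr and its ligand gene Areg were thus high in opposite populations. Erbb2, the gene of HER2, rose from 100.02, 90.5 and 85.4 CPM in HR- LP to 206, 184 and 149 CPM in ML (log2 fold change 0.96 ± 0.15). Among ligands, Nrg4 had 36.5, 49.7 and 65.0 CPM in ML and 1.41, 1.72 and 3.44 CPM in HR- LP (log2 fold change 4.57 ± 0.41), and Epgn rose by 3.28 ± 0.54 (4.08 without HR- LP replicate 3). On the HR- LP side, Hbegf had 256.2, 434 and 448 CPM in HR- LP and 33.3, 39.8 and 41.5 CPM in ML (log2 fold change -3.31 ± 0.29). Hbegf was apart between the groups. Nrg2 had 30.7 to 40.2 CPM in HR- LP and 0.0670 to 0.589 CPM in ML (log2 fold change -6.72 ± 0.44, -7.45 without ML replicate 3). The feedback inhibitor gene Errfi1 had 3368, 5575 and 5715 CPM in HR- LP and 313, 348 and 428 CPM in ML (log2 fold change -3.75 ± 0.28).

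In the list of other growth factor receptor kinases, 1 of 22 tested members rose, 11 fell and 10 did not pass the test (median -1.12). The member that rose was Fgfr2, a fibroblast growth factor receptor gene. It had 1249, 1265 and 1232 CPM in ML and 13.2, 37.4 and 35.0 CPM in HR- LP (log2 fold change 5.45 ± 0.36), with the ML libraries close together. Fgfr1 had 768, 912 and 904 CPM in HR- LP and 384, 386 and 363 CPM in ML (log2 fold change -1.19 ± 0.13). Fgfr1 and Fgfr2 were thus high in opposite populations. Met, the receptor of hepatocyte growth factor, had 514, 592 and 511 CPM in HR- LP and 27.4, 38.3 and 33.3 CPM in ML (log2 fold change -4.03 ± 0.16). Igf1r, the receptor of insulin-like growth factor 1, had 124, 211 and 249.7 CPM in HR- LP and 10.7, 3.32 and 5.44 CPM in ML (log2 fold change -4.93 ± 0.42). The insulin receptor gene Insr did not pass the test (82.4 to 122.8 CPM in HR- LP and 115 to 136 CPM in ML, 0.24 ± 0.16). Tyro3 fell (-2.04), and Ddr1, a collagen receptor gene, did not pass the test (0.15 ± 0.14).

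In the TGF-beta and BMP pathway, of 23 tested members, 7 rose, 9 fell and 7 did not pass the test (median -0.28). The ligand gene Tgfb1 had 69.3, 71.1 and 55.7 CPM in ML and 9.97, 12.6 and 8.09 CPM in HR- LP (log2 fold change 2.67 ± 0.21). The receptor gene Tgfbr2 had 327, 358 and 309 CPM in ML and 101.4, 107 and 119.9 CPM in HR- LP (log2 fold change 1.599 ± 0.13). Both were apart between the groups. Tgfbr3, the betaglycan gene, had 52.5, 74.4 and 61.2 CPM in HR- LP and 1.64, 0.468 and 1.20 CPM in ML (log2 fold change -5.87 ± 0.37). Ltbp1, whose product holds TGF-beta in the matrix, had 449.5, 657 and 531 CPM in HR- LP and 23.4, 39.6 and 25.8 CPM in ML (log2 fold change -4.203 ± 0.23). Its relative Ltbp2 had 168, 172 and 188 CPM in HR- LP and 9.14, 7.30 and 8.19 CPM in ML (log2 fold change -4.42 ± 0.16). Bambi, a decoy receptor gene, fell (-4.34). Bmp3 had 6.10, 2.04 and 4.33 CPM in ML and 1 count in all of HR- LP, a ratio of 678-fold, with a 95% counting interval of 121 to 26849.

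Genes of bacterial sensing and epithelial defence were mostly lower in ML. Of 21 tested members, 1 rose, 14 fell and 6 did not pass the test (median -2.03). Cd14, used in the sort, is among those that fell. Ltf, the lactoferrin gene, had 4662, 4034 and 3848 CPM in HR- LP and 29.5, 6.79 and 29.1 CPM in ML (log2 fold change -7.59 ± 0.54). Lbp, whose product hands lipopolysaccharide to CD14, had 25.4, 35.4 and 23.8 CPM in HR- LP and 0.335, 0.149 and 0.0706 CPM in ML (log2 fold change -7.34 ± 0.42). Chil1, a chitinase-like protein gene, had 154, 149 and 160.0 CPM in HR- LP and 0.971, 0.574 and 1.27 CPM in ML (log2 fold change -7.37 ± 0.27), and Ptx3, a pentraxin gene, fell (-7.05). Ltf, Lbp and Chil1 were apart between the groups, and Ltf had its lowest ML value in replicate 2. The one member that rose, the adaptor gene Myd88 (0.42 ± 0.14), lost its call without any one of 3 libraries, at adjusted p values of 0.0742, 0.0980 and 0.129 without HR- LP replicate 2, ML replicate 2 and ML replicate 3. Ptx3 moved to -7.72 without ML replicate 3 and Lbp to -7.96 without ML replicate 1.

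In the TNF receptor and NF-kB list, of 20 tested members, 3 rose, 10 fell and 7 did not pass the test (median -0.70). Tnfrsf11a, the RANK gene, had 27.7, 25.7 and 18.8 CPM in HR- LP and 2.58, 1.91 and 1.44 CPM in ML (log2 fold change -3.61 ± 0.29). Nfkb1 had 282, 360.2 and 423 CPM in HR- LP and 121, 121 and 136 CPM in ML (log2 fold change -1.49 ± 0.17). The TNF gene Tnf (-2.03) and the TWEAK receptor gene Tnfrsf12a (-1.98) also fell. Tnfrsf1b, the gene of TNF receptor 2, rose from 0.747, 2.84 and 3.04 CPM in HR- LP to 24.4, 32.4 and 34.7 CPM in ML (log2 fold change 3.80 ± 0.42), and Tnfrsf21 by 2.30 ± 0.24. Tnfrsf1a, of TNF receptor 1, did not pass the test (121 to 184 CPM in HR- LP and 123.4 to 131 CPM in ML; -0.41 and called without HR- LP replicate 1). Cd40 had no HR- LP count and 0.971, 1.04 and 0.471 CPM in ML, at least 48.4-fold higher.

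Chemokines and cytokines also divided between the populations. In this list 5 of 26 tested members rose, 10 fell and 11 did not pass the test (median -1.19). On the HR- LP side, the neutrophil attractant gene Cxcl1 had 162, 469.6 and 397 CPM in HR- LP and 23.7, 34.1 and 21.9 CPM in ML (log2 fold change -3.69 ± 0.44). Cx3cl1 had 340.0, 328 and 277 CPM in HR- LP and 118, 111 and 104 CPM in ML (log2 fold change -1.51 ± 0.14). The scavenger receptor gene Ackr3 had 31.9 to 69.9 CPM in HR- LP and 1.13 to 1.41 CPM in ML (log2 fold change -5.40 ± 0.35). All 3 were apart between the groups. On the ML side, Il33, an alarmin gene, had 63.3, 54.8 and 74.5 CPM in ML and 0.848, 0.686 and 0.716 CPM in HR- LP (log2 fold change 6.42 ± 0.22). Cxcl17 had 55.3, 46.1 and 53.6 CPM in ML and 5.29, 7.95 and 3.29 CPM in HR- LP (log2 fold change 3.21 ± 0.27). Il18 had 5.33, 3.77 and 3.13 CPM in ML with no HR- LP count, at least 238-fold higher.

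Interferon and antigen presentation genes were more often higher than lower in ML. Of 22 tested members, 9 rose, 5 fell and 8 did not pass the test (median 0.38). B2m, the light chain gene of MHC class I, had 571, 400.4 and 483 CPM in ML and 266, 227 and 222 CPM in HR- LP (log2 fold change 1.02 ± 0.17). Nlrc5, its transcriptional activator, had 19.0, 18.3 and 28.4 CPM in ML and 2.36, 2.74 and 4.90 CPM in HR- LP (log2 fold change 2.74 ± 0.31), and the immunoproteasome genes Psmb8 and Psmb9 rose by 1.33 ± 0.22 and 2.14 ± 0.24. Stat2 rose by 1.84 ± 0.16 and Irf1 by 1.46 ± 0.30. Irf7 (-1.602) and the MHC class II chaperone gene Cd74 (-2.82; -3.60 without ML replicate 3) fell. Ifit1 (-1.58) and Ifit3 (-2.69), also lower, lost their calls without ML replicate 2 (adjusted p = 0.0535 and 0.0722). Ifit3 lost it without HR- LP replicate 3 too (adjusted p = 0.0617) and was -3.47 without ML replicate 3. Without ML replicate 2, the number of members that fell was 2 in place of 5. Of Ifit3, 51.2% of the 50-base windows also occur in another gene, so its counts are uncertain.

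The keratins of simple epithelium were high in both populations, and others were not. Krt8 (3797 to 5128 CPM in HR- LP and 3982 to 5342 CPM in ML, 0.14 ± 0.18) and Krt18 (3026 to 3224 CPM in HR- LP and 2299 to 2857 CPM in ML, -0.27 ± 0.15) did not pass the test. Krt19 rose from 2726, 2831 and 2932 CPM in HR- LP to 3928, 4522 and 4672 CPM in ML (log2 fold change 0.63 ± 0.14). Of 15 tested members, 7 rose, 4 fell and 4 did not pass the test in the keratin list (median 0.55). Krt7 had 1059, 1604 and 1369.9 CPM in ML and 127, 159 and 219 CPM in HR- LP (log2 fold change 3.000 ± 0.26). Krt6a had 416, 442 and 709 CPM in ML and 3.98, 8.91 and 6.26 CPM in HR- LP (log2 fold change 6.35 ± 0.40), with 45.7% of its 50-base windows shared with another gene. Krt78 had 38.8, 48.5 and 41.9 CPM in ML and 0.666, 0.0921 and 0.644 CPM in HR- LP (log2 fold change 6.73 ± 0.53). These 3 were apart between the groups. Krt23 had 29.6, 32.7 and 24.7 CPM in HR- LP and 0.100, 0.362 and 0.0235 CPM in ML (log2 fold change -7.38 ± 0.54). The basal keratin genes Krt14 and Krt17, low in both groups, fell (-1.78 and -2.13), whereas Krt5, another basal keratin gene, was called higher in ML. Without one library the values were 7.40 for Krt78 (HR- LP replicate 1; 6.03 without HR- LP replicate 2) and -8.98 for Krt23 (ML replicate 2).

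Of 34 tested members, 12 rose, 14 fell and 8 did not pass the test in the junction and adhesion list (median -0.36). Cdh1, the E-cadherin gene (643 to 966 CPM in HR- LP and 684 to 842 CPM in ML, 0.02 ± 0.18) and Itgb1, an integrin gene (-0.20 ± 0.12), did not pass the test. Epcam, the epithelial adhesion gene used in sorting, had 3395, 3369 and 3779 CPM in HR- LP and 1175, 1429 and 1363 CPM in ML (log2 fold change -1.41 ± 0.15). Cd24a, another sorting marker, had 1185, 2178 and 1956 CPM in ML and 459, 383 and 392 CPM in HR- LP (log2 fold change 2.11 ± 0.26). Epcam and Cd24a thus lay higher in opposite populations. Cd200, an immune-modulating surface protein gene, had 462, 579 and 456 CPM in ML and 28.7, 43.0 and 18.6 CPM in HR- LP (log2 fold change 4.05 ± 0.28). The claudin gene Cldn10 had 75.2, 84.1 and 72.1 CPM in ML and 1.23, 3.15 and 3.65 CPM in HR- LP (log2 fold change 4.86 ± 0.33). On the HR- LP side, the hyaluronan receptor gene Cd44 had 228, 272 and 289.8 CPM in HR- LP and 30.6, 26.9 and 37.3 CPM in ML (log2 fold change -3.06 ± 0.17). Every HR- LP library of Cd44 held more than any ML library. Pkp1, a desmosome plaque gene, had 233, 324 and 353 CPM in HR- LP and 27.5, 28.0 and 32.4 CPM in ML (log2 fold change -3.37 ± 0.19), and the laminin gene Lamb3 fell (-3.03). Itga3 and the desmosomal cadherin gene Dsc2 rose by 1.49 ± 0.14 and 2.48 ± 0.20.

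The largest gain in absolute level belonged to an ion transporter. Slc12a2, the gene of the sodium, potassium and chloride cotransporter NKCC1, had 14541, 18628 and 13049 CPM in ML and 241, 658 and 345 CPM in HR- LP (log2 fold change 5.22 ± 0.37, adjusted p = 9.0e-07), the highest CPM of any gene in ML. Of 18 tested members, 5 rose, 9 fell and 4 did not pass the test in the channel and pump list (median -0.54). The calcium channel gene Trpc6 had 159, 239 and 216 CPM in ML and 0.585, 2.69 and 1.86 CPM in HR- LP (log2 fold change 6.86 ± 0.47; 7.49 without HR- LP replicate 2). Calcium pumps differed. Atp2c2, a Golgi pump gene, had 115, 106 and 136 CPM in ML and 8.56, 12.2 and 15.1 CPM in HR- LP (log2 fold change 3.31 ± 0.24). Atp2b1, a plasma membrane pump gene, had 545, 618 and 612 CPM in HR- LP and 32.8, 16.5 and 27.2 CPM in ML (log2 fold change -4.54 ± 0.25). Subunits of one sodium channel, Scnn1a and Scnn1b, were also higher in opposite populations. Scnn1a had 245, 259 and 211 CPM in ML and 55.9, 73.6 and 51.3 CPM in HR- LP (log2 fold change 1.98 ± 0.17). Scnn1b had 137, 179 and 153 CPM in HR- LP and 16.5, 20.6 and 18.1 CPM in ML (log2 fold change -3.08 ± 0.16). These subunits did not overlap between groups. The potassium channel gene Kcnk5 had 457, 617 and 642 CPM in HR- LP and 9.88, 9.40 and 15.2 CPM in ML (log2 fold change -5.64 ± 0.25). Kcnn4, a calcium-activated potassium channel gene, had 97.8, 65.4 and 78.3 CPM in HR- LP and 0.368, 0.106 and 0.330 CPM in ML (log2 fold change -8.29 ± 0.37).

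Of 21 tested members, 4 rose, 11 fell and 6 did not pass the test among nutrient and metal transporters (median -1.41). Slc7a2, a transporter of arginine and lysine, had 1883, 2729 and 1772 CPM in ML and 12.9, 66.6 and 20.8 CPM in HR- LP (log2 fold change 5.99 ± 0.58; 6.99 without HR- LP replicate 2, which held the highest HR- LP value). Slc3a2, the heavy chain gene of several amino acid exchangers, had 979, 1037 and 861 CPM in HR- LP and 158, 151 and 125 CPM in ML (log2 fold change -2.73 ± 0.15). Slc1a1, a glutamate transporter gene, had 36.6, 89.8 and 113 CPM in HR- LP and 0.536, 0.255 and 0.565 CPM in ML (log2 fold change -7.49 ± 0.60), with 31.9% of its exon bases in another gene too. All 3 genes were apart between the groups. Slc5a8, a monocarboxylate transporter gene (-4.65), and the transferrin receptor gene Tfrc (-1.86) fell, while the zinc transporter gene Slc30a4 rose by 0.99 ± 0.18. The ferritin heavy chain gene Fth1 did not pass the test (707 to 810.4 CPM in HR- LP and 612 to 677 CPM in ML).

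Genes of fatty acid and triglyceride synthesis divided by member. Of 25 tested members, 6 rose, 9 fell and 10 did not pass the test (median -0.19). The stearoyl desaturase genes Scd1 and Scd2 went opposite ways. Scd1 had 582, 1055 and 1737 CPM in HR- LP and 113, 125 and 127 CPM in ML (log2 fold change -3.21 ± 0.38). Scd2 had 139, 189 and 105 CPM in ML and 19.7, 20.9 and 17.9 CPM in HR- LP (log2 fold change 2.88 ± 0.22). Both were apart between the groups. Fads1, which desaturates polyunsaturated fatty acids, had 419, 476 and 300.5 CPM in HR- LP and 6.23, 1.47 and 2.54 CPM in ML (log2 fold change -6.90 ± 0.49). Fads2, of the same pathway, had 279, 323 and 249.5 CPM in HR- LP and 2.61, 0.532 and 2.73 CPM in ML (log2 fold change -7.21 ± 0.49). Dgat2, which makes triglyceride, had 472, 725 and 378 CPM in ML and 10.5, 23.4 and 21.9 CPM in HR- LP (log2 fold change 4.82 ± 0.39), and Gpam rose by 3.13 ± 0.22. Fads1, Fads2 and Dgat2 were apart between the groups. Fasn, the fatty acid synthase gene, overlapped widely (101.1, 235 and 298 CPM in HR- LP against 183, 229.7 and 186 CPM in ML), and was called lower (-0.41) when HR- LP replicate 1 was left out. Fads1 was -7.64 without ML replicate 1.

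Cholesterol synthesis genes were more often higher than lower in ML. In this list 10 of 22 tested members rose, 3 fell and 9 did not pass the test (median 0.34). Fdft1, squalene synthase, had 72.1, 79.6 and 65.5 CPM in ML and 27.6, 17.6 and 23.0 CPM in HR- LP (log2 fold change 1.67 ± 0.18), and Sc5d rose by 1.004 ± 0.12. Abca1, a cholesterol exporter gene, and Stard4, a sterol carrier gene, fell (-1.39 and -4.66). The other member that fell was the synthesis gene Dhcr7, whose call was lost in many of the alternatives described below.

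Called genes of mitochondrial respiration were nearly all higher in ML, by small steps. Of 53 tested members, 23 rose, 1 fell and 29 did not pass the test (median 0.39). Ndufa7, a complex I subunit gene, had 111, 103 and 92.5 CPM in ML and 64.6, 40.5 and 38.9 CPM in HR- LP (log2 fold change 1.09 ± 0.19). Cox5a, a complex IV subunit gene, had 79.6, 94.2 and 86.2 CPM in ML and 53.5, 52.8 and 42.6 CPM in HR- LP (log2 fold change 0.80 ± 0.13), and Cyc1 rose by 0.60 ± 0.12. HR- LP replicate 1 lay above the other HR- LP libraries for Ndufa7 and Cox4i1 (255, 200.5 and 205 CPM), and the number that rose was 36 without it and 13 without ML replicate 2. The member that fell was Cycs, the cytochrome c gene (-0.65 ± 0.18), whose call was lost without ML replicate 3 (adjusted p = 0.0604) and of whose 50-base windows 25.9% occur in another gene.

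Glycolysis genes divided too. In this list 5 of 22 tested members rose, 10 fell and 7 did not pass the test (median -0.05). Hk2, a hexokinase gene, had 128, 177 and 197 CPM in ML and 3.75, 13.3 and 27.2 CPM in HR- LP (log2 fold change 3.52 ± 0.55; 4.27 without HR- LP replicate 3). Pkm, pyruvate kinase, rose by 1.12 ± 0.15 and Tpi1 by 0.85 ± 0.17. The aldolase gene Aldoc had 423, 404 and 302 CPM in HR- LP and 35.4, 45.4 and 39.3 CPM in ML (log2 fold change -3.23 ± 0.17). The phosphofructokinase gene Pfkp (-2.15) and Pdk4, which restrains pyruvate entry to mitochondria (-3.94), also fell. Ldhb, a lactate dehydrogenase gene, had 35.1, 33.9 and 22.9 CPM in HR- LP and 0.402, 0.128 and 0.542 CPM in ML (log2 fold change -6.44 ± 0.44). Of the 50-base windows of Pkm and Ldhb, 25.8% and 21.0% occur in another gene. Gpi1 (-0.05 ± 0.12) and Pdha1 (0.09 ± 0.13) did not pass the test.

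In retinoid handling, of 14 tested members, 2 rose, 5 fell and 7 did not pass the test (median -0.03). Crabp1 is among those that rose, a call lost without any one of 5 libraries. Beside Aldh1a3, the retinoic acid carrier gene Crabp2 had 60.9, 66.8 and 56.5 CPM in HR- LP and 1.27, 1.43 and 0.589 CPM in ML (log2 fold change -5.81 ± 0.29). The receptor gene Rarb (-3.33; -4.13 without ML replicate 1) also fell, with 38.4% of its exon bases in another gene too. Rbp4, the serum retinol carrier gene, had 1.14, 1.91 and 2.87 CPM in ML and no HR- LP count, at least 115-fold higher.

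Mucin genes were high in one population or the other, and most called secretory genes were higher in ML. Of 25 tested members, 14 rose, 6 fell and 5 did not pass the test (median 0.75). Muc13 had 332, 467 and 269.8 CPM in ML and 1.45, 6.99 and 2.36 CPM in HR- LP (log2 fold change 6.58 ± 0.56). Dmbt1, a mucosal scavenger receptor gene, had 241, 1241 and 1593 CPM in ML and 0.989, 22.3 and 13.1 CPM in HR- LP (log2 fold change 6.39 ± 1.17), with ML replicate 1 far below the other ML libraries. Of the other mucin genes, Muc1 had 297, 336 and 318 CPM in HR- LP and 12.5, 13.1 and 27.4 CPM in ML (log2 fold change -4.16 ± 0.29). Dmbt1 and Muc1 thus lay on opposite sides. Muc15 had 351, 308 and 211 CPM in HR- LP and 3.58, 0.298 and 1.15 CPM in ML (log2 fold change -7.51 ± 0.70). Muc20 had 116, 116 and 128 CPM in HR- LP and 1.67, 0.149 and 0.683 CPM in ML (log2 fold change -7.27 ± 0.54). All 5 were apart between the groups. Syt7, a calcium sensor gene of exocytosis, had 85.2, 99.0 and 97.2 CPM in ML and 0.767, 0.737 and 1.15 CPM in HR- LP (log2 fold change 6.79 ± 0.21). Sytl2 had 45.8, 50.5 and 57.0 CPM in ML and 1.11, 1.63 and 0.859 CPM in HR- LP (log2 fold change 5.36 ± 0.24). The glycosyltransferase gene Gcnt1 had 24.4, 21.2 and 23.1 CPM in ML and 0.444, 1.22 and 0.966 CPM in HR- LP (log2 fold change 4.68 ± 0.34). Fut9 fell (-6.08), and Pam, which amidates peptide hormones, rose by 0.57 ± 0.12. Without HR- LP replicate 2 the values were 7.58 for Muc13 and 7.22 for Dmbt1, and without ML replicate 1 they were -8.66 for Muc15 and -8.19 for Muc20.

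Among secreted regulators, of 16 tested members, 5 rose, 4 fell and 7 did not pass the test (median 0.60, mean 0.108). Igfbp5, a binding protein of insulin-like growth factors, was the most abundant, with 8354, 13974 and 10518 CPM in HR- LP and 67.4, 22.4 and 62.9 CPM in ML (log2 fold change -7.75 ± 0.46). Of the fibrinogen chain genes, Fga was low, with a mean of 0.258 CPM in ML and no HR- LP count. Fgg and Fgb were high in ML, Fgg with 974, 916 and 1823 CPM in ML and 8.44, 24.7 and 13.7 CPM in HR- LP (log2 fold change 6.30 ± 0.54). Fgb had 515, 680.0 and 1222 CPM in ML and 3.79, 21.1 and 7.01 CPM in HR- LP (log2 fold change 6.23 ± 0.71; 7.24 without HR- LP replicate 2). Igfbp5, Fgg and Fgb were apart between the groups. Cck, the cholecystokinin gene, had 247, 139.7 and 107.8 CPM in HR- LP and 1.67, 0.0851 and 0.494 CPM in ML (log2 fold change -7.92 ± 0.69; -9.18 without ML replicate 1 and -7.33 without ML replicate 2). Stc1 fell (-3.42) while its relative Stc2 rose. Spink5 had 4.36, 5.24 and 1.54 CPM in HR- LP and no ML count, at least 148-fold lower in ML. Of 16 tested members, 3 rose, 8 fell and 5 did not pass the test in the protease inhibitor list (median -1.25). Cst3, the cystatin C gene, had 1677, 1390.5 and 1165 CPM in HR- LP and 18.4, 12.8 and 17.5 CPM in ML (log2 fold change -6.44 ± 0.22). Cst6, at no more than 0.353 CPM in any of the 6 libraries, is among the members that rose, a call lost without any one library. Serpinh1, a collagen chaperone gene, had 111, 66.8 and 74.4 CPM in HR- LP and 5.96, 5.60 and 4.80 CPM in ML (log2 fold change -3.95 ± 0.30).

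Immediate early genes, which respond to growth signals and to tissue handling, were listed together with heat shock genes, and most were lower in ML. Of 21 tested members of this joint list, 15 fell and 6 did not pass the test (median -1.43). Fosb had 10864, 13752 and 9442 CPM in HR- LP and 4386, 4719 and 3325 CPM in ML (log2 fold change -1.45 ± 0.18). Egr1 had 6281, 5315 and 3270.2 CPM in HR- LP and 1088, 869 and 818 CPM in ML (log2 fold change -2.42 ± 0.25). Jund had 9116, 6898 and 4546 CPM in HR- LP and 2371, 2685 and 2552 CPM in ML (log2 fold change -1.43 ± 0.22), and 52.6% of its exon bases also lie in another gene, so its counts are uncertain. The levels were high in both groups, and HR- LP replicate 3 was the lowest of its group for all 3. Fos overlapped between groups (4366 to 9493 CPM in HR- LP and 2434 to 4412 CPM in ML), and its call was lost without any one of 3 libraries (adjusted p = 0.0789, 0.0527 and 0.0812 without HR- LP replicate 1, HR- LP replicate 2 and ML replicate 3). The heat shock gene Hspa1a did not pass the test (321 to 745 CPM in HR- LP and 405 to 918 CPM in ML, 0.22 ± 0.35), and 60.4% of its 50-base windows occur in another gene. The nuclear receptor gene Nr4a1 (-2.86) and Ier3 (-2.85) fell.

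In the unfolded protein response list, of 20 tested members, 7 rose, 6 fell and 7 did not pass the test (median 0.17). Hspa5, the gene of the main chaperone BiP, had 2201, 1582 and 1828 CPM in HR- LP and 523, 629.8 and 638 CPM in ML (log2 fold change -1.65 ± 0.16). Atf4 had 874, 765 and 793 CPM in HR- LP and 192, 191 and 241 CPM in ML (log2 fold change -1.96 ± 0.15). The chaperone genes Hsp90b1 (-0.16 ± 0.15) and Pdia3 (-0.03 ± 0.15) did not pass the test. Sec61b, a subunit of the translocation channel, rose by 1.35 ± 0.17 and Sdf2l1 by 1.71 ± 0.18.

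Few genes of DNA replication and mitosis or of homologous recombination passed the test. Of cyclins D and CDK inhibitors, 53.8% were called, beside 44.6% of all tested genes. In DNA replication and mitosis, of 28 tested members, 4 rose, 2 fell and 22 did not pass the test (median -0.07). Pcna, the polymerase clamp gene, had 132, 122 and 134 CPM in HR- LP and 37.5, 40.5 and 42.5 CPM in ML (log2 fold change -1.69 ± 0.12). Aurka, a mitotic kinase gene, had 35.5, 38.5 and 35.3 CPM in ML and 1.61, 3.84 and 5.37 CPM in HR- LP (log2 fold change 3.35 ± 0.34). These 2 genes thus moved in opposite directions. The number that rose was 2 without ML replicate 1 or without ML replicate 3. Among cyclins D and CDK inhibitors, of 13 tested members, 4 rose, 3 fell and 6 did not pass the test (median 0.06). Rb1, the retinoblastoma gene, had 553, 710.2 and 609.5 CPM in HR- LP and 67.9, 52.7 and 61.1 CPM in ML (log2 fold change -3.37 ± 0.16). Cdkn1a, the p21 gene, had 304, 459.7 and 450.2 CPM in HR- LP and 83.1, 99.9 and 102 CPM in ML (log2 fold change -2.09 ± 0.21), and Cdk6 fell (-3.06). Cdkn2a had 0.703, 0.808 and 1.67 CPM in ML and no HR- LP count, at least 62.0-fold higher. In homologous recombination, of 21 tested members, 2 fell and 19 did not pass the test (median -0.13). Brca2 had 12.3, 27.4 and 24.0 CPM in HR- LP and 11.99, 6.36 and 8.12 CPM in ML (log2 fold change -1.27 ± 0.32), and Xrcc2 (-1.95) also fell, while Brca1 did not pass the test (0.66 ± 0.35).

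Survival genes of the Bcl2 family divided. Of 15 tested members, 4 rose, 4 fell and 7 did not pass the test (median 0.36, mean -0.731, of opposite sign). Bcl2 had 121, 141 and 119 CPM in HR- LP and 1.57, 0.468 and 1.25 CPM in ML (log2 fold change -6.90 ± 0.35). Mcl1, of the same anti-apoptotic group, had 1877, 2133 and 1962 CPM in HR- LP and 305, 415 and 389 CPM in ML (log2 fold change -2.43 ± 0.16). Bcl2l1, also anti-apoptotic, did not pass the test (-0.04 ± 0.14). Of the pro-apoptotic members, Bmf and Bak1 rose by 3.02 ± 0.45 and 1.19 ± 0.19, and Bcl2l11, the Bim gene, fell (-1.34). Of the exon bases of Bak1, 25.5% also lie in another gene.

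Markers of other cell types were low in both groups, with exceptions named below. Summed over its genes, the immune list (6 of 11 tested, 1 rose) held 1.32 to 2.89 CPM in HR- LP and 2.08 to 2.47 CPM in ML, with Cd3e at or near 0 and Ptprc at no more than 0.537 CPM. The endothelial list (10 tested, 1 rose) held 9.61 to 18.4 CPM in HR- LP and 62.7 to 83.1 CPM in ML. Most of it was Vwf, the von Willebrand factor gene, with 70.2, 74.97 and 53.5 CPM in ML and 1.92, 5.41 and 1.43 CPM in HR- LP (log2 fold change 4.44 ± 0.45; 5.29 without HR- LP replicate 2). Of the defining endothelial genes, Cdh5, Kdr, Emcn and Tie1 were under 2 CPM in all 6 libraries. Pecam1 did not pass the test (2.72 to 3.83 CPM in HR- LP and 3.08 to 3.74 CPM in ML). The fibroblast list (10 tested, 2 rose and 4 fell) held 80.3 to 145 CPM in HR- LP and 207 to 363 CPM in ML. Dcn had 299.8, 72.7 and 85.5 CPM in ML and 6.48, 10.3 and 10.02 CPM in HR- LP (log2 fold change 4.09 ± 0.70; 3.15 without ML replicate 1, the highest ML library). Col6a3 had 42.0, 155 and 89.5 CPM in ML and 0.807, 4.70 and 6.55 CPM in HR- LP (log2 fold change 4.59 ± 0.73). The 2 genes were high in different ML libraries. The collagen genes Col1a2 (-1.79) and Col3a1 (-1.67) fell, and Pdgfra fell too, with 11.2 to 21.4 CPM in HR- LP and 0 to 1.15 CPM in ML (-5.11; -6.80 without ML replicate 2). The adipocyte list (2 of 7 tested, 1 fell) held 3.81 to 10.7 CPM in HR- LP and 1.85 to 5.46 CPM in ML, and the erythrocyte list (4 of 6 tested, 2 rose) held 0.343 to 1.57 CPM in HR- LP and 4.62 to 12.4 CPM in ML. Basal markers (14 tested, 1 rose and 7 fell) held 8524 to 14168 CPM in HR- LP and 90.1 to 122.6 CPM in ML, of which Igfbp5 made up most in HR- LP, and Krt14 (10.8, 21.1 and 11.1 CPM in HR- LP) and Krt5 (2.44, 3.05 and 1.25 CPM) were low. Basal keratins were thus low beside the luminal ones, and Krt5 was the basal marker that rose. The pan-luminal list (10 tested, 4 rose and 3 fell) held 16187 to 18709.5 CPM in HR- LP and 16306 to 20919.6 CPM in ML. The part of other cells in the results was not tested.

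**Figure D4:**
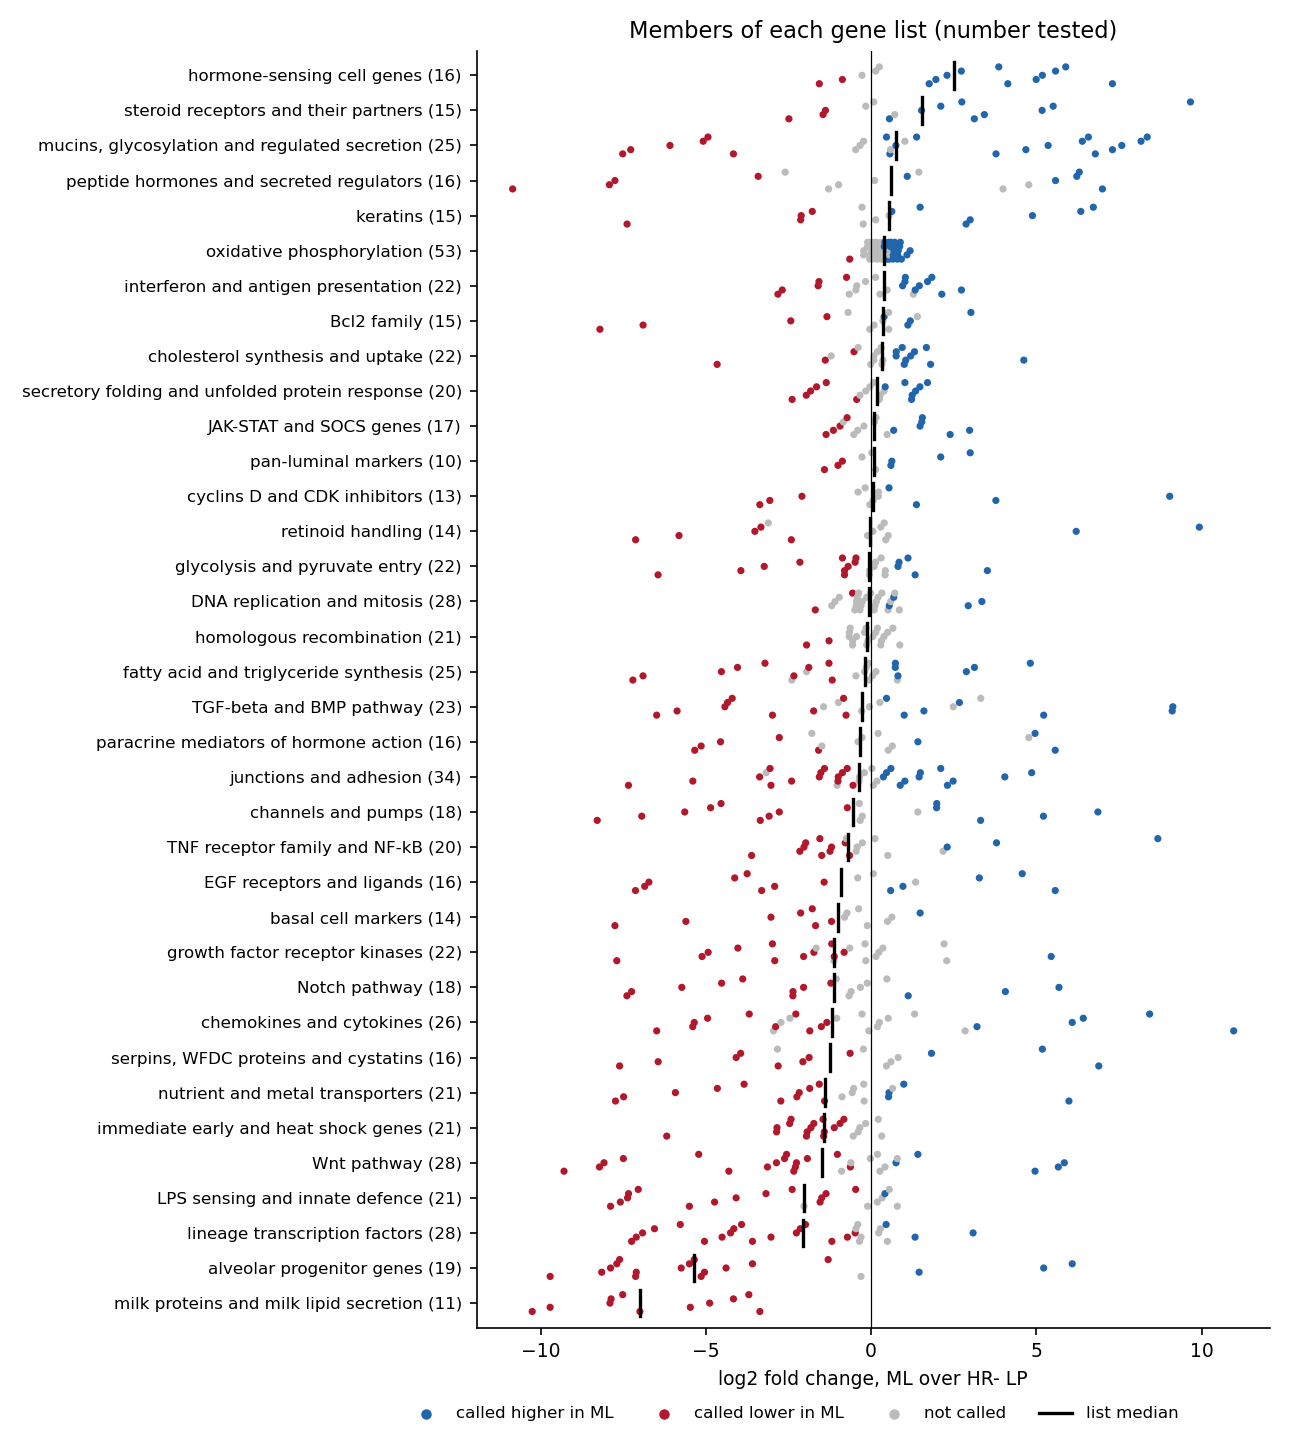
Each row is a gene list with its number of tested members, ordered by median; points are members by log2 fold change of ML over HR- LP (blue, called higher; red, called lower; grey, not called), spread vertically for legibility, and black bars are medians. The lists of immune, endothelial, fibroblast, adipocyte and erythrocyte markers are not drawn. The medians drawn run from -6.99 for milk genes to 2.51 for hormone-sensing genes, and in most lists members lie on both sides of 0.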

How the data were processed

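The authors deposited raw whole-number counts of reads per gene, made with featureCounts on mm10 per the submitters' processing notes. The aligner, the annotation and the handling of multi-mapped reads are not named in these sources. RNA came from a miRNeasy kit with DNase, and the TruSeq RNA v2 kit made the libraries (labels' protocols). NCBI gene IDs were matched to RefSeq symbols of the same build for 25275 of 27179 genes; the others stayed in the fit and held at most 1.67% of a library's counts. The 9 libraries were fitted together in edgeR 4.0.16 (R 4.3.3; filterByExpr by group, TMM, quasi-likelihood F test, no covariate, Benjamini-Hochberg over 15910 genes), tested first on simulated data. SE is the absolute log2 fold change over the root of F. Alternatives used DESeq2 1.42.0, limma 3.58.1, other scalings, filters and library sets. The members, the 41 gene lists and the tests were chosen with earlier results of these data known, so lists carry counts and no set test. Named genes were the 12 largest rises and falls (called, over 2-fold, log2 CPM over 3, groups apart). From each list came up to 5 by p, 3 by level, 4 against its direction and 2 level ones. Further ones were the 10 most abundant per kilobase in each group and, in each direction, the 8 highest found in only 1 of the groups compared. Cd14, Pgr, Esr1, Foxa1, Kit and Elf5 were always named. Sox9, Sox10, Tbx3, Gata3, Spp1 and Brca1 were added after their values were seen. Some genes are not reported here. Of 347 named genes in GENCODE vM21, 16 shared over 20% of their 50-base windows with another gene and 12 had over 20% of exon bases overlapped.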

Additional observations from a re-analysis of the deposited data

How the results depend on the processing

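Every alternative left both counts of called genes within 1.5 times their value and turned the direction of no called named gene. Over the alternatives, 2835 to 4463 genes were called higher and 2798 to 3812 lower. With 1 library left out, the counts were 2835 (without ML replicate 2) to 4073 (without HR- LP replicate 1) higher and 2798 to 3585 lower, and 8 to 18 of 355 named genes lost their call. Scaling by library totals alone gave 4463 higher and 2801 lower, and moved the median of all genes from 0.03 to 0.19. DESeq2 gave 3942 and 3812, limma voom 3921 and 3294, and a fit of the 6 libraries alone 2906 and 2926. The labels do not say whether replicate numbers pair the libraries, and these values cannot settle it. Deviations of same-numbered libraries correlated weakly, at 0.053, 0.025 and 0.085, and those of different numbers at -0.082 to 0.018. Each library correlated best with its own number. With the replicate number as a block, 4019 and 3590 genes were called over 9 libraries and 2996 and 2845 over 6. Of named genes, the calls of Grhl1, Erbb3, Cldn4, Dhcr7 and Ldha were each lost in 8 or more of the 17 alternatives, and those of Crabp1 and Cst6, low in count, in 8 and 9 of the 13 in which they were tested. Of the genes nearest to on or off, 3 remained in ML and 4 in HR- LP at 10 CPM in place of 5, and 5 and 1 when no count was allowed in the other group (both limits chosen after seeing the data). In simulated counts of this comparison (15910 genes), 19 of 50 genes changed 2-fold and 35 of 50 changed 4-fold upward were called, with 7 false calls. Only 50 genes were changed at each fold and direction there, whereas 44.6% of genes were called in the data. Adjusted p-values depend on that share, so the simulation gives no estimate of the changes missed in the data.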

Other observations

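Gene families picked by symbol after their values were seen are given here as descriptions. Ly6a, Adamts1, Klf4, Klf5, Syt7 and 4 collagen genes among their members were already counted in the lists above. Histone genes of the replication clusters were mostly higher in ML, where 32 of 49 rose and 17 did not pass the test (median log2 fold change 3.88). H1f2, a linker histone gene, had 465, 431 and 311 CPM in ML and 25.005, 33.2 and 17.998 CPM in HR- LP (log2 fold change 3.98 ± 0.27), and H2bc4 had 84.0, 82.7 and 93.5 CPM in ML and 7.10, 7.69 and 6.80 CPM in HR- LP (log2 fold change 3.59 ± 0.14). Over the alternatives run, 23 to 36 of the histone genes were called higher. A count filter keeps genes near 0 in one group because of the group where they are high, so these counts are a description. Together they held 0.0045% to 0.0060% of the counts in HR- LP and 0.062% to 0.075% in ML, much of it from H1f2, so many members were low. Sequence that these genes share with each other was not examined. In the DNA replication and mitosis list of the same libraries 4 genes rose and 2 fell. Genes of cytosolic ribosomal proteins leaned the other way: 51 of 80 fell (median -0.60), together 1.61% to 2.29% of the counts in HR- LP and 1.23% to 1.34% in ML. With scaling by library totals alone, 37 of them fell and 1 rose. All 13 protein genes encoded in mitochondrial DNA had a positive fold change, and 12 were called higher (median 0.96). They held 1.36% to 1.74% of the counts in HR- LP and 2.37% to 2.55% in ML.

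Of the Ly6 family, whose members are small surface proteins, 9 of 11 rose and 1 fell. Ly6d had 966, 1347 and 1098 CPM in ML and 72.1, 96.1 and 63.0 CPM in HR- LP (log2 fold change 3.88 ± 0.22). Ly6m had 35.5, 43.6 and 28.9 CPM in ML and 0.605, 0.635 and 2.90 CPM in HR- LP (log2 fold change 4.84 ± 0.54). Lypd3 was the member that fell (log2 fold change -4.12). Of the Adamts matrix proteases and the Adamts-like genes, counted together, 2 of 18 rose and 11 fell. Adamts15 had 0.268, 0.170 and 0.424 CPM in ML and 120.4, 72.6 and 72.9 CPM in HR- LP (log2 fold change -8.27 ± 0.49), and Adamts9 went the other way with 32.2, 48.3 and 48.1 CPM in ML and 1.45, 2.59 and 2.76 CPM in HR- LP (log2 fold change 4.25 ± 0.31). Of the collagens, 6 of 36 rose and 16 fell. The cartilage-type chains Col9a1, Col9a2, Col9a3 and Col11a1 had log2 fold changes of -8.86, -6.78, -6.93 and -7.62, and Col8a1 had 159, 169 and 192 CPM in ML and 1.03, 5.68 and 0.680 CPM in HR- LP (log2 fold change 6.02 ± 0.65). Of the Kruppel-like transcription factors, 8 of 14 fell. Klf9, a progesterone and glucocorticoid target in several tissues, had 56.7, 71.0 and 63.2 CPM in ML and 245, 493 and 307 CPM in HR- LP (log2 fold change -2.45 ± 0.25).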
